A study of Homo sapiens with 6 samples.

Results

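The ERBB receptors and their ligands were followed in the H358 cell line as 9 named genes, found in the table by their symbols: the receptors EGFR, ERBB2 and ERBB3, the neuregulin NRG1, and the EGFR ligands AREG, EREG, TGFA, HBEGF and BTC. All 9 are among the 57445 genes of the count table, and all 9 passed the filter on low counts, which left 17129 genes for testing. H358 is an established human non-small cell lung cancer line. The groups C1 and C2 are clones listed as isogenic and carrying the BRMS1v2 variant A273V on both copies. Each of the 2 is a single clone, and how they were derived is not stated in the labels. The third group is the parental line, listed as wild type for BRMS1 (WT). BRMS1 is known as a suppressor of metastasis that acts on transcription through histone deacetylase complexes. All groups grew in RPMI medium with 10% serum and had no treatment listed. Each group has 2 libraries of total RNA, numbered replicate 1 and 2, and the labels do not say whether these are separate cultures. The p-values therefore measure the spread between these libraries, which may be technical. Where a model takes the replicate number as a block, they measure only how unequal the replicate difference is among the groups.

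ERBB receptors are tyrosine kinases of the plasma membrane that signal as dimers. EGFR binds amphiregulin, epiregulin, transforming growth factor alpha, heparin-binding EGF-like growth factor and betacellulin, the products of AREG, EREG, TGFA, HBEGF and BTC. ERBB2 has no known ligand of its own and is the favoured dimer partner of the others, while ERBB3 binds neuregulin, has little kinase activity and recruits PI3-kinase once phosphorylated. The ligands are made as membrane proteins and released by ADAM proteases, and several of them are themselves targets of RAS and ERK signalling in lung epithelium and its tumours.

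Among the 9 genes, NRG1 set the clones apart most. Its mean was lowest in C1, intermediate in C2 and highest in WT, with no overlap between the clone libraries and the WT libraries. All clone libraries lay below WT in 11.9% of all tested genes, and EGFR was also among these. ERBB3 was higher in both C1 libraries than in both WT libraries, an order that 17.5% of all genes share. The same held for HBEGF, which in C2 was at about the WT level. The differences of NRG1, ERBB3 and HBEGF passed the test only in a model that takes the replicate number as a block. The replicate number moved 6 of the 9 genes: AREG, EREG, BTC and NRG1 were lower and ERBB2 and ERBB3 higher in replicate 2, where 24.7% of all tested genes were called and proliferation genes were lower. Of these 6 calls, that of AREG was the only one kept without either C2 library.

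AREG, EREG and BTC lie next to each other on chromosome 4, in the order MTHFD2L, EPGN, EREG, AREG, BTC, PARM1 among protein-coding genes, and all 3 were lower in replicate 2 of each group. Their promoters are shown because of this shared position and shared shift. Each is a RefSeq window (GRCh38.p14) from 250 bases before to 50 bases after the gene's start, written 5′ to 3′ on the gene's strand, and capitals mark the motif matches found. The windows are chr4:74364895-74365194 on the plus strand for EREG, chr4:74444886-74445185 on the plus strand for AREG and chr4:74794474-74794773 on the minus strand for BTC.
EREG: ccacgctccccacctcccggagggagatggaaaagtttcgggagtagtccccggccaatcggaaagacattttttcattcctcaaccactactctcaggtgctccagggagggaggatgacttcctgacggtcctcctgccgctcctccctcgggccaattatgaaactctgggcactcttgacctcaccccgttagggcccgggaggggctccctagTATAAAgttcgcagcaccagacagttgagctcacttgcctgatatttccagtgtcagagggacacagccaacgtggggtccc
AREG: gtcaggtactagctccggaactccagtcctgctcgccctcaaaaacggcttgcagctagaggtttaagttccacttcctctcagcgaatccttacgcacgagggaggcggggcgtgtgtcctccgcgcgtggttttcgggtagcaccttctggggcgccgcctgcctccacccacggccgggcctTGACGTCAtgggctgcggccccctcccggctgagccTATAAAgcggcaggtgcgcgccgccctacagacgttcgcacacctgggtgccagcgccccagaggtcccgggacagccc
BTC: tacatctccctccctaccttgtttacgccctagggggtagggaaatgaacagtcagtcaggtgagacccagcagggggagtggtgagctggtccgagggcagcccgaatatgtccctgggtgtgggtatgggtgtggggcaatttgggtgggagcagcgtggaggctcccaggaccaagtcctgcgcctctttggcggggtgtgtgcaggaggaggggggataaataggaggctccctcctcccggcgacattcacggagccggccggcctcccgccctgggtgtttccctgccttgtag
The motifs searched on both strands were AP-1 (TGANTCA), the cyclic AMP response element (TGACGTCA) and the TATA box (TATAAA). The response element occurred in AREG, beginning 65 bases before the start, and in 1.85% of all 35116 promoters of the same length. The TATA box occurred 32 bases before the start in EREG and 29 bases before it in AREG, against 11.5% of all promoters, and these letters were not in the BTC window. The AP-1 letters were in none of the 3 windows and in 7.71% of all promoters. Of the 9 genes, 7 had a promoter in the table, and ERBB3 and NRG1 are named only. A match is a description of the letters and not evidence of a bound factor.

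Gene counts came to 27527867 to 37146270 per library, and levels are given as CPM, a gene's share of its library's counts on the usual scale, after TMM scaling. The 6 epithelial markers summed to 5753 and 6460 CPM in C1, 5489 and 5940 CPM in C2, and 4991 and 4392 CPM in WT. Every clone library was thus above both WT libraries, an order that 11.9% of single tested genes share in the higher direction. The markers did not all go this way, as CDH1 averaged 880.6 CPM in C1, 714.9 in C2 and 754.3 in WT. The lung lineage factors NKX2-1 (65.1 to 155 CPM) and FOXA2 (41.5 to 72.1 CPM) were present. NAPSA, an aspartic protease of alveolar cells, measured 3.02 and 3.88 CPM in C1, 2.88 and 5.60 CPM in C2, and 6.08 and 8.21 CPM in WT, and with the replicate number as a block it fell in C1 (-1.04 ± 0.268, edgeR adjusted p = 0.0329) and in the mean of the clones (-0.92 ± 0.224, adjusted p = 0.0212). SFTPB and SFTPC had 0 to 2 counts and SCGB1A1 had 0 in all libraries. Leukocyte markers summed to 2.21 to 4.67 CPM. Replicate 2 had lower summed levels of 16 proliferation genes in every group, with 372 against 2891 CPM in C1, 1032 against 3301 CPM in C2 and 1143 against 2871 CPM in WT (replicate 2 against replicate 1). In bulk RNA, fewer cells of a kind and less RNA per cell cannot be told apart.

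To compare genes with one another, CPM was divided by exon length in kilobases. In the WT libraries EREG stood first at 44.1 ± 8.37 CPM per kilobase (SD, n = 2 here and below), above TGFA at 26.4 ± 3.87 CPM per kilobase, with no overlap between them. ERBB3 followed at 22.1 ± 4.95 and ERBB2 at 18.4 ± 2.87 CPM per kilobase, and TGFA, ERBB3 and ERBB2 overlapped as neighbours in this order. EGFR was lower at 8.27 ± 0.158 CPM per kilobase, apart from its neighbours on both sides. BTC at 3.65 ± 0.535, AREG at 2.91 ± 2.41, HBEGF at 2.65 ± 1.17 and NRG1 at 1.62 ± 0.673 CPM per kilobase closed the order, each overlapping the next. The place of AREG is uncertain, as it has a near-identical copy in the hg19 build and may be undercounted. In C2 the first places went to EREG at 42.8 ± 19.7 and ERBB3 at 30.8 ± 8.68 CPM per kilobase, and in C1 to ERBB3 at 37.3 ± 6.65 and EREG at 36.8 ± 28.1 CPM per kilobase, which overlapped in both clones. NRG1 was last in each group, at 0.387 ± 0.235 CPM per kilobase in C1 and 0.641 ± 0.385 in C2.

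Together the 3 receptors summed to 58.9 and 82.9 CPM per kilobase in C1, 48.5 and 75.0 in C2, and 43.1 and 54.4 in WT (replicates 1 and 2). ERBB3 made up 50.7% to 55.4% of that sum in C1, 49.3% to 50.9% in C2 and 43.1% to 47.1% in WT. EGFR made up 8.59% to 11.3% in C1, 9.93% to 16.4% in C2 and 15.4% to 18.9% in WT. The ERBB3 share was thus above that of WT without overlap of the libraries in both clones. The EGFR share was below that of WT without overlap in C1 only. As parts of the same sum, these shares depend on each other, and EGFR itself was not called against WT in either model. How often other sets of genes give such an order was not counted. Among the 5 EGFR ligands, EREG and TGFA together made up most of the counted sum in every library. AREG has a near-identical copy in the hg19 build and may be undercounted. Its part of the sum, and with it the other ligand shares, is therefore uncertain. The EREG share was 59.0% and 33.3% in C1, 62.3% and 43.5% in C2, and 59.4% and 50.7% in WT (replicates 1 and 2), and the TGFA share 28.8% and 49.9%, 28.5% and 46.8%, and 28.2% and 38.7% in the same libraries. TGFA exceeded EREG in replicate 2 of both clones and in no other library.

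**Figure D1:**
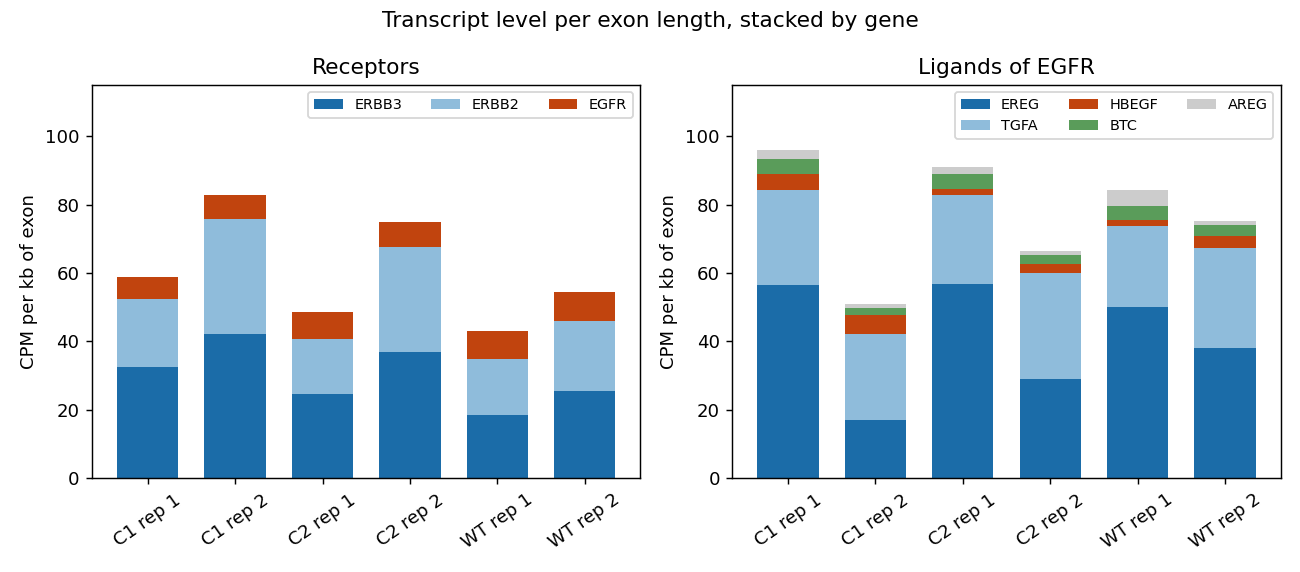
Level per exon length (vertical axis, CPM per kilobase of exon, from 0) of the 3 receptors (left) and the 5 EGFR ligands (right), stacked by gene, 1 bar per library of C1, C2 and WT. ERBB3 is the largest receptor segment in every bar, and the EREG segment is smaller in replicate 2 than in replicate 1 of each group.

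NRG1 encodes neuregulin 1, the ligand of ERBB3 and ERBB4, and lies on chromosome 8. It measured 6.27 and 2.51 CPM in C1, 10.4 and 4.18 CPM in C2, and 23.7 and 12.9 CPM in WT (replicates 1 and 2), from 75 to 741 counts. Every clone library was below both WT libraries, and within each group replicate 2 was the lower. The separation of the clone libraries from WT, without regard to the replicates, was shared by 23.8% of all tested genes in either direction. In the lower direction it was shared by 11.9%. The fitted log2 difference of C1 against WT was -2.06 ± 0.636 (SE) without the block, with an adjusted p of 0.509 in edgeR. With the replicate number as a block it was -2.13 ± 0.24, a fold of 0.228, and edgeR's adjusted p was 0.000174, so NRG1 fell in C1 in the blocked model. The call held when each of the 6 libraries was left out in turn, and its largest adjusted p was 0.0320.

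In C2 the NRG1 difference from WT was -1.33 ± 0.621 without the block (edgeR adjusted p = 0.789) and -1.41 ± 0.232 with it (adjusted p = 0.00376), a fold of 0.377. This call was lost when either C2 library was left out, the adjusted p then reaching 0.359, and kept when a C1 or WT library was left out. Both comparisons use the same WT libraries and are not independent of each other. For the mean of both clones the blocked difference was -1.77 ± 0.192 (adjusted p = 7.61e-05). Between the clones, NRG1 differed by 0.72 ± 0.239 (C2 minus C1, blocked), with an unadjusted p of 0.00955 and an adjusted p of 1. The genes nearest to NRG1 on chromosome 8, 10 on each side, were taken among tested genes with a mean log2 CPM of at least 2. Genes of lower level were passed over, and the choice was made after the values were seen. These 20 genes had a median blocked difference of -0.21 in C1 and -0.24 in C2 against WT. None of them was as low as NRG1 in either clone.

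ERBB3, the receptor for neuregulin, lies on chromosome 12. It measured 294.9 and 379.9 CPM in C1, 223.3 and 334.1 CPM in C2, and 168.0 and 231.3 CPM in WT (replicates 1 and 2). Both C1 libraries were above both WT libraries, C2 overlapped WT, and replicate 2 was the higher in each group. The log2 difference of C1 against WT was 0.76 ± 0.285 without the block (edgeR adjusted p = 0.596) and 0.77 ± 0.140 with it (adjusted p = 0.00551), a fold of 1.70, so ERBB3 rose in C1 in the blocked model. The call was lost without either C2 library (adjusted p up to 0.0683). In C2 the blocked difference was 0.47 ± 0.140 with an adjusted p of 0.0757, which passed without C1 replicate 1 (0.0316) or C1 replicate 2 (0.0270), and the unblocked one 0.48 ± 0.284 with 0.864. For the mean of the clones the blocked difference was 0.62 ± 0.124 (adjusted p = 0.00754), and that call too was lost without either C2 library (adjusted p = 0.0847 without replicate 1 and 0.124 without replicate 2). The 6 epithelial markers had a median blocked difference of 0.38 in C1, 0.30 in C2 and 0.35 for the mean of the clones, where EPCAM was called (0.50 ± 0.128, adjusted p = 0.0273), and their part in the ERBB3 difference was not tested. The 20 nearest tested genes with a mean log2 CPM of at least 2 had a median blocked difference of 0.25 against WT in both clones. Of these 20, 1 was as high as ERBB3 in C1 and 3 were as high as ERBB3 in C2.

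HBEGF, the heparin-binding ligand of EGFR and ERBB4, measured 14.4 and 16.5 CPM in C1, 5.72 and 8.36 CPM in C2, and 5.50 and 10.5 CPM in WT (replicates 1 and 2). Both C1 libraries were above all 4 others, and C2 and WT overlapped. The log2 difference of C1 against WT was 0.95 ± 0.385 without the block (edgeR adjusted p = 0.628) and 1.01 ± 0.241 with it (adjusted p = 0.0231), a fold of 2.02. HBEGF thus rose in C1 in the blocked model, but the call was lost without C1 replicate 1, C2 replicate 1, C2 replicate 2 or WT replicate 1, with adjusted p up to 0.159. C2 differed from WT by -0.15 ± 0.244 (blocked, adjusted p = 0.800). In C2 against C1, HBEGF was lower in both C2 libraries than in both C1 libraries, an order that 7.41% of tested genes share. That difference was -1.17 ± 0.242 with the block, with an unadjusted p of 0.000317 and an adjusted p of 0.418 in edgeR. It passed without C1 replicate 2 (adjusted p = 0.00538), WT replicate 1 (0.000478) or WT replicate 2 (0.00124), and not without the other 3 libraries. Of the 20 nearest tested genes on chromosome 5 with a mean log2 CPM of at least 2, none was as high as HBEGF in C1. Their median difference was -0.04.

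**Figure D2:**
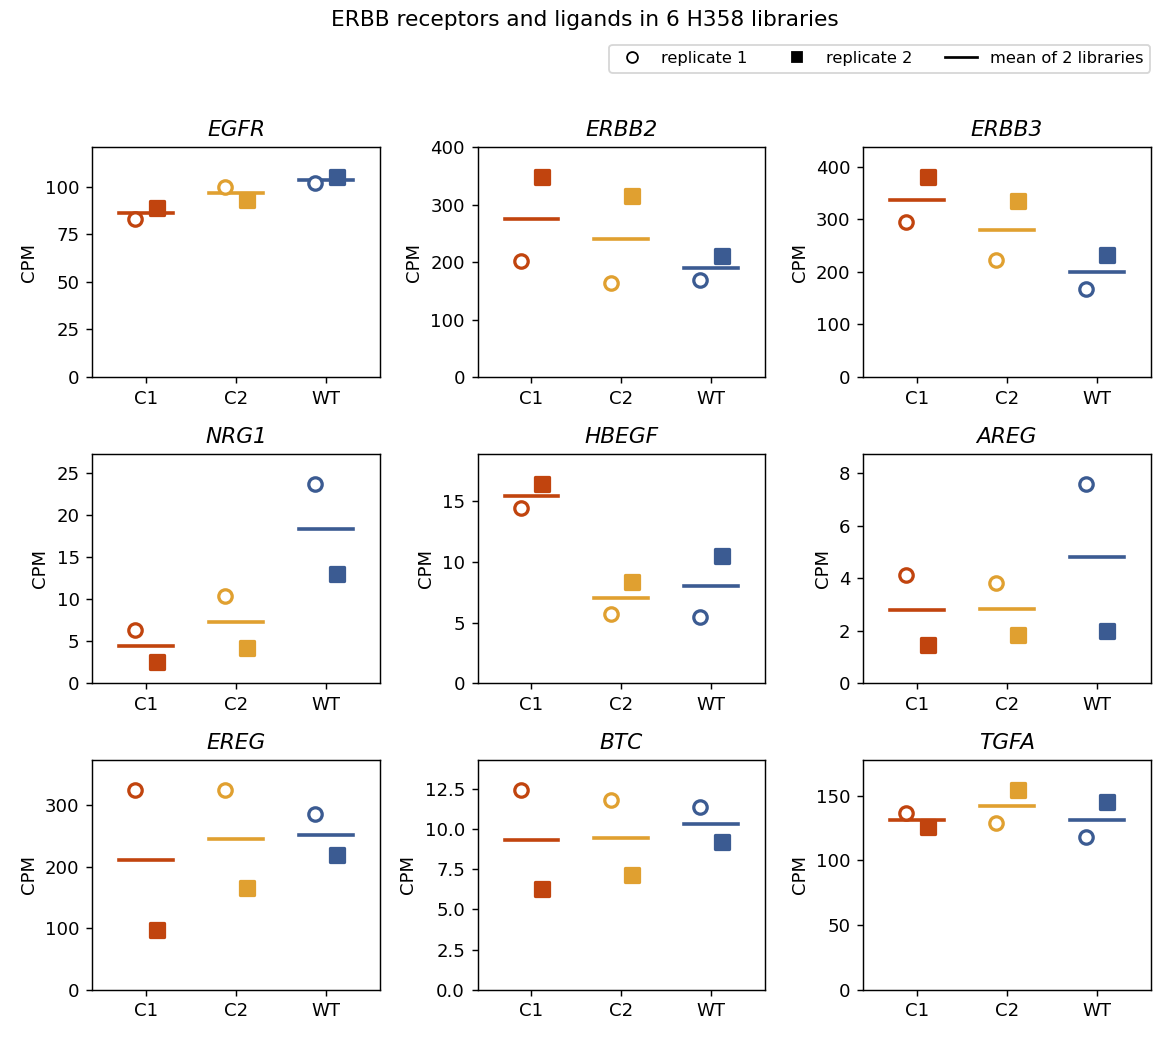
CPM of each of the 9 genes (vertical axes, starting at 0) by group, 1 point per library, with the replicate number shown by the marker and the group mean by a line. NRG1 is lower in all 4 clone libraries than in WT, HBEGF and ERBB3 are higher in both C1 libraries than in WT, and AREG, EREG and BTC separate by replicate number.

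EGFR and ERBB2 did not pass the test, with all 6 libraries, in any comparison of clones with WT or with each other. EGFR measured 83.0 and 89.1 CPM in C1, 99.9 and 93.2 CPM in C2, and 102.2 and 105 CPM in WT (replicates 1 and 2). All 4 clone libraries were below both WT libraries, but the distances were small and the spread within groups was, relative to the level, the smallest of the 9 genes. The blocked difference was -0.27 for C1 (95% interval -0.58 to 0.05, edgeR adjusted p = 0.328) and -0.10 for C2 (-0.42 to 0.21, adjusted p = 0.775). ERBB2 measured 202.7 and 348 CPM in C1, 163.6 and 315.5 CPM in C2, and 168.6 and 210.6 CPM in WT. The clone libraries overlapped WT and differed more by replicate number than by group. The blocked difference was 0.48 for C1 (95% interval 0.13 to 0.84, adjusted p = 0.0991) and 0.27 for C2 (-0.09 to 0.62, adjusted p = 0.426). The C1 difference passed without WT replicate 1 (0.77, adjusted p = 0.00453). Exons of ERBB2 share 571 bases with MIEN1 and 194 bases with PGAP3 on the other strand in GENCODE 29, and the strand setting of the counting is not given in the sources used here. None of the 7 listed neighbours of ERBB2 was called in C1, C2 or their mean, in either model.

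The other 4 EGFR ligands likewise gave no call between clones and WT. TGFA had the narrowest range of the ligands over the 6 libraries, at 136.8 and 125.7 CPM in C1, 129.0 and 154.3 CPM in C2, and 117.6 and 144.7 CPM in WT. Its groups overlapped, and its blocked difference was 0.01 for C1 (95% interval -0.32 to 0.34) and 0.11 for C2 (-0.22 to 0.44). EREG measured 323.7 and 96.6 CPM in C1, 324.4 and 165.2 CPM in C2, and 285.9 and 218.3 CPM in WT. The replicate 1 libraries of both clones were above WT and the replicate 2 libraries below it, and the blocked difference was -0.49 for C1 (-1.29 to 0.32) and -0.14 for C2 (-0.94 to 0.65). For C1 against WT, EREG passed the blocked test without C1 replicate 1 (-1.03, adjusted p = 4.78e-05) or WT replicate 1 (-0.96, adjusted p = 0.000704), and was at 0.03 without C1 replicate 2. In C2 against C1 it passed without C1 replicate 1 (0.91, adjusted p = 0.00217).

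AREG rested on few counts, at 4.13 and 1.47 CPM in C1, 3.83 and 1.86 CPM in C2, and 7.61 and 1.99 CPM in WT, from 44 to 238 counts. Its lowest WT library lay within the range of both clones. The blocked difference was -0.70 for C1 (95% interval -1.35 to -0.05, edgeR adjusted p = 0.199) and -0.59 for C2 (-1.24 to 0.06, adjusted p = 0.319). For the mean of the clones it was -0.64 ± 0.256 (adjusted p = 0.138), and -0.93 without WT replicate 2 (adjusted p = 0.0459). AREG has a near-identical copy in the hg19 build, AREGB, which is listed at 0 in all 6 libraries, so the level of AREG is uncertain where reads could not be placed in 1 position. BTC measured 12.4 and 6.25 CPM in C1, 11.8 and 7.15 CPM in C2, and 11.4 and 9.22 CPM in WT. Its groups overlapped, and its blocked difference was -0.21 for C1 (-0.72 to 0.31) and -0.16 for C2 (-0.68 to 0.35).

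**Figure D3:**
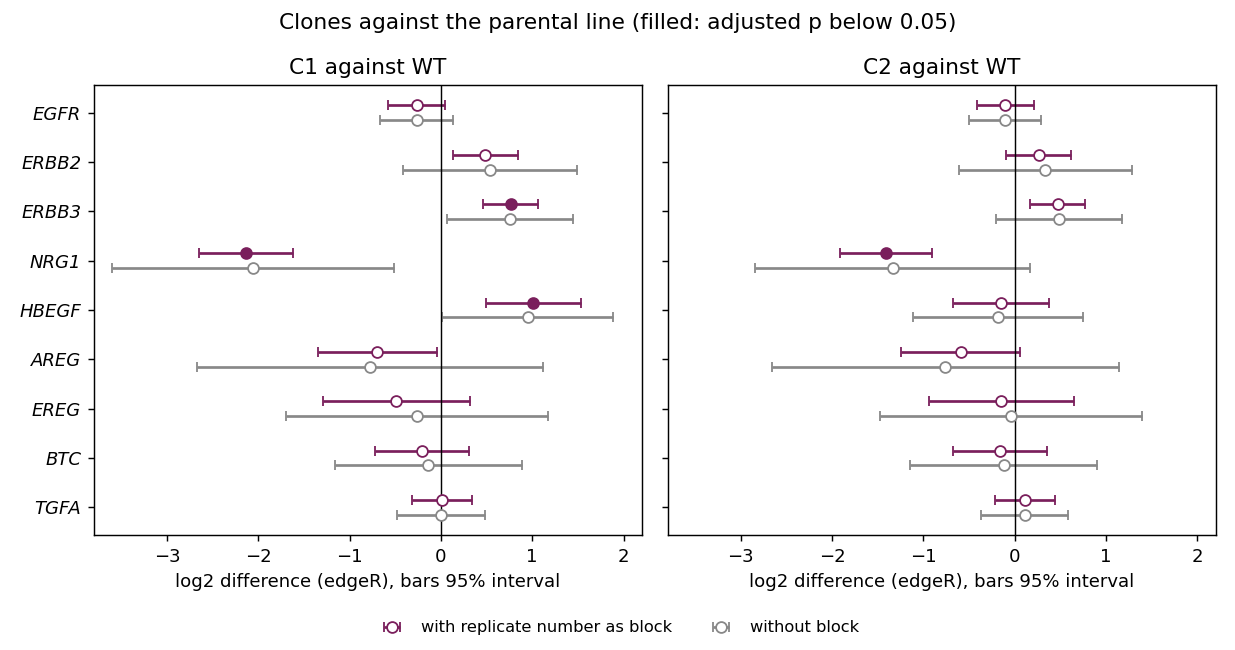
Log2 difference of C1 (left) and C2 (right) against WT for the 9 genes (horizontal axis, bars are 95% intervals), with the replicate number as a block and without it; filled points have an adjusted p below 0.05 in edgeR. NRG1 is filled in both clones and ERBB3 and HBEGF in C1, all in the blocked model only, where intervals are narrower.

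In counts, edgeR without the block called 0 of the 9 genes in C1 against WT, in C2 against WT, in C2 against C1 and in the mean of the clones against WT. At an unadjusted p below 0.05 these numbers were 3, 0, 1 and 2, beside 1348, 1156, 61 and 1677 of the 17129 genes tested, and DESeq2 called 0 of the 9 in each. Over all tested genes the unblocked model called 0.0117% in C1 against WT and 0.0117% in C2 against WT, 0 in C2 against C1 and 0.198% in the mean (0.0234% higher and 0.175% lower). With the block, 2 of the 9 genes were higher in C1 than in WT (ERBB3 and HBEGF), against 2.96% of all genes, and 1 was lower (NRG1), against 4.07%. In C2, 1 was lower (NRG1), against 2.59% of all genes, and 0 were higher, against 1.94% (2 at an unadjusted p below 0.05 in either direction, beside 3258 of all genes). Without regard to direction the blocked model called 7.03% of genes in C1, 4.54% in C2 and 9.74% in the mean. For the mean, 1 of the 9 genes was higher (ERBB3), against 4.12% of all genes, and 1 was lower (NRG1), against 5.63%. The median difference of the 9 genes was -0.21 in C1 and -0.14 in C2, beside -0.01 and -0.001 over all genes. In C2 against C1, the blocked model called 0 of the 9 and 0 of all genes, with 2 of the 9 and 642 of all genes at an unadjusted p below 0.05.

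Read by the order of the libraries alone, ERBB3 and HBEGF were higher in both C1 libraries than in both WT libraries, against 17.5% of all genes, and EGFR and NRG1 were lower in both, against 17.6%. These 4 of the 9 stand beside 35.1% of all genes in either direction. In C2 against WT, EGFR and NRG1 were lower in both libraries, against 17.3%, and 0 of the 9 were higher, so that 2 of the 9 stand beside 34.8%. In C2 against C1, HBEGF was lower and EGFR higher in both C2 libraries, against 7.41% and 7.21%, which makes 2 of the 9 beside 14.6%. Counts of this size beside such shares are no result about the 9 genes.

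The replicate number was then taken as the comparison, replicate 2 against replicate 1 within groups. The labels do not say what it marks. AREG was lower in replicate 2 of every group, with 1.47 against 4.13 CPM in C1, 1.86 against 3.83 CPM in C2 and 1.99 against 7.61 CPM in WT. Its log2 difference was -1.496 ± 0.252 (SE), with an adjusted p of 0.000982 in edgeR. NRG1 fell by 1.154 ± 0.193 (adjusted p = 0.000942), EREG by 1.03 ± 0.263 (adjusted p = 0.0421) and BTC by 0.67 ± 0.196 (adjusted p = 0.0247) on the log2 scale. The EREG shift was not of one size: it was -1.74 in C1, -0.97 in C2 and -0.39 in WT. All replicate 2 libraries lay below all replicate 1 libraries for AREG, EREG and BTC, and overlapped them for NRG1. That order was shared by 18.5% of all genes in the lower direction.

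In the other direction, ERBB2 rose by 0.68 ± 0.135 (adjusted p = 0.00308) and ERBB3 by 0.47 ± 0.114 (adjusted p = 0.00941) in replicate 2. For ERBB2 every replicate 2 library was above every replicate 1 library, as in 17% of all genes, which brings the genes in a clean order to 4 of the 9, beside 35.5% of all genes in either direction. HBEGF was 0.55 ± 0.198 higher but did not pass (adjusted p = 0.0593), and it passed without C1 replicate 1 (0.75, adjusted p = 0.0224) or C1 replicate 2 (0.74, adjusted p = 0.0269). TGFA, at 0.15 ± 0.126, and EGFR, at 0.01 ± 0.12, gave no call, with intervals of -0.13 to 0.42 and -0.24 to 0.27. The 6 calls, 4 lower and 2 higher, stand beside 24.7% of all genes called, 12.2% lower and 12.5% higher. Leaving out 1 library at a time kept AREG called in 6 of 6 cases. NRG1, EREG, ERBB2 and ERBB3 were lost without either C2 library, with adjusted p up to 0.136, and BTC was called in 2 of 6 cases, with adjusted p up to 0.211.

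Of the 16 proliferation genes, all 16 had a negative difference in replicate 2, with a median of -2.09. Of these, 5 passed the test, beside 12.2% of all genes called lower. The part of the proliferation genes in the shifts of the ERBB genes was not tested. For the 3 genes with the widest range over the 6 libraries, the genes of most similar profile were found by the root-mean-square (RMS) difference between centred log2 CPM profiles over 6 libraries. AREG (range 2.32) was closest to H2AFX (RMS 0.174), CHTF18 (0.184) and CDT1 (0.199), a histone variant gene, a replication clamp loader subunit and a replication licensing factor. EREG (range 1.75) was closest to GPM6A (0.0990), KNSTRN (0.1), a spindle component, and MZT1 (0.102), a part of the microtubule nucleating complex. NRG1 (range 3.21) was closest to SPA17 (0.186), UNC13D (0.287) and ECHDC3 (0.291). SPA17 measured 8.59 and 2.64 CPM in C1, 10.4 and 4.70 CPM in C2, and 21.1 and 13.9 CPM in WT. These are the nearest of 11863 genes, so a close match is found by the search itself.

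**Figure D4:**
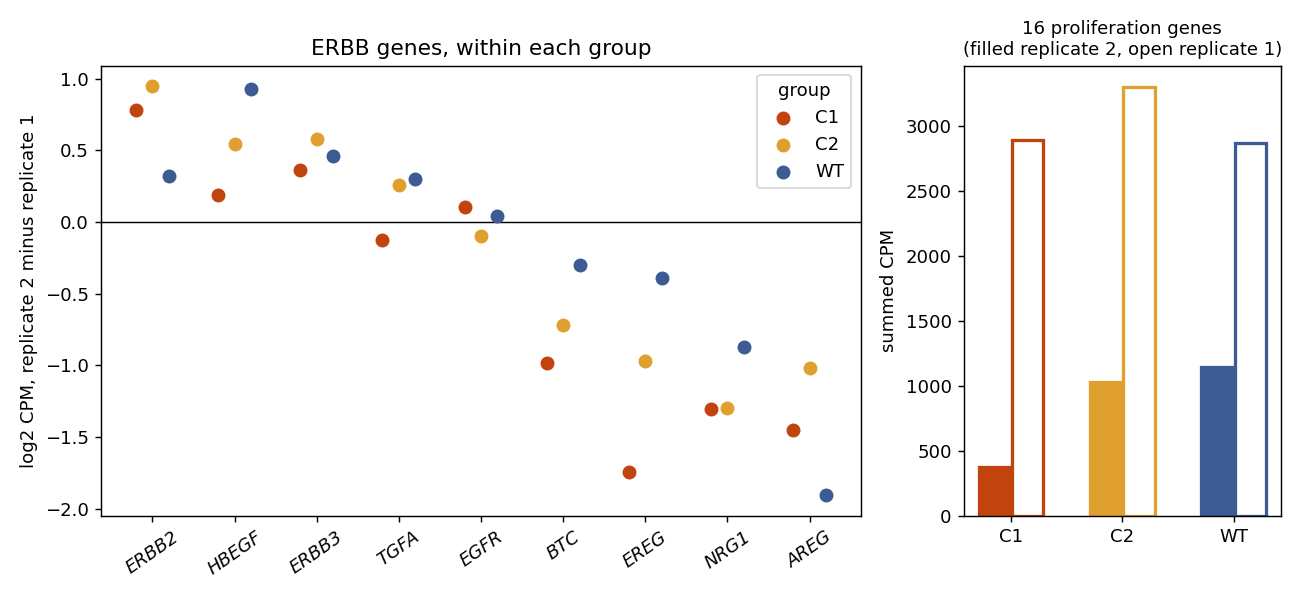
Left, log2 CPM of replicate 2 minus replicate 1 (vertical axis) for each of the 9 genes, 1 point each for C1, C2 and WT. Right, summed CPM of the 16 proliferation genes (vertical axis, from 0) in replicate 2 (filled bars) and replicate 1 (open bars) of each group. AREG, NRG1, EREG and BTC lie below 0 and ERBB2, ERBB3 and HBEGF above it in every group, and each filled bar is lower than its open bar.

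ERBB4, the other neuregulin receptor, had 18 and 18 counts in C1, 21 and 51 in C2, and 30 and 55 in WT. EGF measured 17.6 and 5.55 CPM in C1, 17.5 and 14.6 CPM in C2, and 15.8 and 11.6 CPM in WT, and NRG4, a ligand of ERBB4, 5.09 and 2.61, 3.12 and 2.45, and 4.25 and 1.95 CPM. Of these 6 listed genes, ERBB4, EGF and NRG4 were tested, and 0 were called against WT in either model. The blocked ERBB4 difference in C1 was -1.27 ± 0.400 (adjusted p = 0.0756). EPGN had 3 to 12 counts, NRG2 had 0 to 3, and NRG3 had 0 in all libraries. By replicate number NRG4 fell by 0.82 ± 0.245 on the log2 scale (adjusted p = 0.0279).

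Of 8 listed genes of ligand release, 7 were tested and 0 were called in C1 or in C2 in either model. RHBDL2, a rhomboid protease that can cleave EGF, was at 11 and 7 counts in C1, 5 and 10 in C2, and 26 and 29 in WT, and for the mean of the clones it fell by 1.78 ± 0.403 in the blocked model (adjusted p = 0.0143). ADAM17, the main sheddase of AREG, TGFA and HBEGF, was higher in replicate 2 (0.70 ± 0.125, adjusted p = 0.00157), with 146 against 98.5 CPM in C1, 139 against 92.6 CPM in C2 and 158 against 82.7 CPM in WT. Of 10 genes of receptor inhibition and turnover, 1 was called with the block in C1 and 0 in C2, beside 7.03% and 4.54% of all genes. CBL, a ubiquitin ligase that marks active EGFR for degradation, measured 61.0 and 80.3 CPM in C1, 79.6 and 75.8 CPM in C2, and 106 and 124 CPM in WT, and fell in C1 (-0.71 ± 0.160, adjusted p = 0.0182). CBL and SPA17 lie beyond BRMS1 on chromosome 11, where the 301 tested genes from BRMS1 on, a stretch chosen after values were seen, had a median difference of -0.37 in C1 and -0.35 in C2, beside -0.02 and -0.001 for the 359 before it. The part of this in the CBL and SPA17 levels was not tested. By replicate number 3 of the 10 rose and 1 fell in replicate 2, beside 12.5% higher and 12.2% lower of all genes. Among them were ERRFI1, an inhibitor of the EGFR kinase (0.52 ± 0.149, adjusted p = 0.0262), and RNF41, a ubiquitin ligase for ERBB3 (0.61 ± 0.144, adjusted p = 0.00882).

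Of 30 adaptors and first signalling steps, all tested, the blocked model called 3 higher and 1 lower in C1 and 0 in C2. These counts stand beside 7.03% of all genes called in C1 and 4.54% in C2. For the mean of the clones it called 3 higher, PIK3CB (0.54 ± 0.132), a catalytic subunit of PI3-kinase, SRC (0.50 ± 0.140) and the exchange factor SOS2 (0.48 ± 0.130), with adjusted p from 0.0214 to 0.0399. Of 20 other receptor tyrosine kinases, 14 were tested. The blocked model called 2 higher and 2 lower in C1, beside 2.96% and 4.07% of all genes. In C2 it called 1 in each direction, beside 1.94% higher and 2.59% lower of all genes. AXL measured 4.72 and 3.24 CPM in C1, 4.70 and 3.16 CPM in C2, and 9.21 and 9.02 CPM in WT, a difference of -1.22 ± 0.260 in C1 (adjusted p = 0.0135) and -1.24 ± 0.261 in C2 (adjusted p = 0.0168). INSR, the insulin receptor, rose by 1.25 ± 0.291 in C1 (adjusted p = 0.0209) and 1.13 ± 0.293 in C2 (adjusted p = 0.0463), from 44 to 140 counts. FGFR4 fell by 1.23 ± 0.259 (adjusted p = 0.0131) and the collagen receptor DDR1 rose by 0.65 ± 0.162 (adjusted p = 0.0296) in C1. None of these was called without the block. Of the 3 tested endothelial markers, KDR and CDH5 were also higher in C1 with the block, beside 2.96% of all genes. CDH5 was at a low level, with means of 2.38 CPM in C1, 1.62 in C2 and 0.70 in WT. VWF was not called in C1 and went the other way, with means of 1.01 CPM in C1, 1.046 in C2 and 1.605 in WT. KDR, at means of 26.7, 18.49 and 13.05 CPM in the same groups, made up most of the summed level of the 3. This sum was 18.0 and 42.1 CPM in C1, 16.2 and 26.0 CPM in C2, and 9.52 and 21.2 CPM in WT. The part of this in the receptor differences was not tested, and PECAM1 was not analysed here.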

How the data were processed

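RNA of 6 libraries (3 groups of 2) was read in 50-base pairs, per the labels. The authors deposited raw read counts per gene, and the tools listed in the submitters' processing notes are STAR 2.5.0a, HTSeq 0.5.3 and cutadapt 1.6, with the build hg19; the annotation release and strand setting are not given in the sources used here. The 5 HTSeq totals are not genes and were left out; reads placed in more than 1 position made up 6.77% to 7.56% of a library and entered no gene. The counts were tested with edgeR 4.0.16 in R 4.3.3 (TMM, filterByExpr over the 3 groups, quasi-likelihood F test with robust dispersion, limma 3.58.1), with Benjamini-Hochberg adjustment over all 17129 genes tested and calls at an adjusted p below 0.05. Log2 CPM used a prior count of 2. The unblocked model has 3 residual degrees of freedom and the model with the replicate number as a block has 2. The code was tested on simulated data.

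The members and the gene lists were chosen with earlier results of these data known. Other genes were named per list, up to 4 with the largest difference for the mean of the clones among those called, plus those at 0. Exon lengths and the nearest tested genes came from GENCODE 29. Promoters came from RefSeq (GRCh38.p14), and the printed order of genes around AREG also from RefSeq. The replicate numbers come from the sample titles. Deviations of same-numbered libraries correlated by 0.584 (C1 and WT), 0.634 (C2 and WT) and 0.701 (C2 and C1), all above 0.1, so the numbers were taken as pairs and blocked values stand beside calls they change. With 2 libraries a group the deviations are mirror images, and the labels do not say what the number marks. Replicates were not copies, differing by a chi-square per gene of 119 in C1, 105 in C2 and 90.7 in WT. The alternatives tried were the block, DESeq2 1.42.0, RLE scaling, no filter, and leaving out each library. Some results for listed genes are not reported here.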

Additional observations from a re-analysis of the deposited data

How the results depend on the processing

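With the replicate number as a block, the count of all genes called was 1204 in C1 against WT, 777 in C2 against WT and 1669 in the mean of the clones, beside 2, 2 and 34 without it, and the members called were 3, 1 and 2, beside 0. DESeq2 called 270, 209 and 393 genes in these comparisons, and edgeR with no filter on low counts 296, 209 and 436, with 0 members called in each. The cause was not tested. TGFA in C1 against WT, at 0.0012, turned to -5.3e-05 with DESeq2 and -8.9e-05 with RLE scaling. Without the filter HBEGF passed in replicate 2 against replicate 1 (adjusted p = 0.0396). All the other values of the members kept their direction and their side of the threshold under DESeq2, RLE scaling and no filter, and the block changed no call of a member beyond NRG1, ERBB3 and HBEGF.

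Leaving out each library, with and without the block, gave 0 to 1776 genes called in C1 against WT, 0 to 1756 in C2 against WT, 0 to 343 in C2 against C1 and 0 to 2277 in the mean of the clones. The members called were 0 to 4, 0 to 2, 0 to 1 and 0 to 4. With the block, the counts of genes were low without C2 replicate 1 (178 in C1, 2 in C2 and 208 in the mean) and without C2 replicate 2 (199, 8 and 213). For replicate 2 against replicate 1 the ranges were 617 (without C2 replicate 1) to 4849 genes and 1 to 6 members. The group that loses a library keeps 1, which is assumed to vary like the other groups.

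Directions that turned when a library was left out had these ranges of log2 difference. In C1 against WT they were -1.70 to 0.51 for AREG (-1.695 and 0.505), -1.37 to 0.37 for EREG, -0.18 to 0.22 for TGFA (-0.185 and 0.216) and -0.71 to 0.28 for BTC. In C2 against WT they were -0.24 to 0.74 for ERBB2, -1.42 to 0.52 for AREG, -0.60 to 0.39 for EREG, -0.048 to 0.27 for TGFA, -0.57 to 0.36 for HBEGF and -0.52 to 0.17 for BTC. In C2 against C1 they were -0.78 to 0.24 for ERBB2, -0.59 to 0.92 for AREG, -0.40 to 1.31 for EREG, -0.094 to 0.29 for TGFA, -0.39 to 0.57 for BTC and -0.069 to 1.505 for NRG1. For the mean of the clones they were -1.43 to 0.51 for AREG, -0.77 to 0.20 for EREG, -0.08 to 0.22 for TGFA, -0.0034 to 0.93 for HBEGF and -0.46 to 0.10 for BTC. By replicate number EGFR ranged over -0.035 to 0.075. NRG1 against WT stayed below 0 and ERBB3 against WT above 0 in each clone. AREG, with 44 to 238 counts, and ERBB4, with 18 to 55, rest on few reads, which limits their precision.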
